A study of Mus musculus with 3 samples.

Results

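SR and hnRNP proteins are RNA-binding regulators of splicing. The 37 genes described here, called members below, encode 10 SR proteins, 2 TRA2 proteins, 21 hnRNP proteins, 2 poly(C)-binding proteins and 2 polypyrimidine tract-binding proteins of the mouse. They were taken by symbol from the 50600 genes of the deposited tables, and all 37 were found. RNA was measured in 3 libraries of 1 group, T-helper 1 (Th1) cells of strain C57BL/6NJ, which are primary CD4 T cells driven to the Th1 state in culture. The labels name no treatment, no allele and no second cell type, give age as unknown and sex as not collected, and carry 1 donor entry for all 3 libraries. The file headers add the note 24 hr, whose meaning is not stated. Separate animals or cultures are not named, so p-values and the spread between replicates 1, 2 and 3 measure only these libraries and may be partly technical. The labels call the assay total RNA, while the library protocol in the labels is named for polyA RNA.

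SR proteins pair 1 or more RNA recognition motifs with a tail rich in arginine and serine. They bind enhancers in exons and help U1 and U2 snRNPs reach the splice sites, and kinases of the SRPK and CLK families phosphorylate their tails. hnRNP proteins coat nascent RNA through RNA recognition motifs or KH domains and often silence exons. In T cells this balance is best known from Ptprc, whose variable exons are skipped after activation through Hnrnpll and Hnrnpl. Many SR and hnRNP genes limit their own mRNA by splicing in an exon or intron that sends the transcript to nonsense-mediated decay.

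Counts are numbers of read pairs on exons of a gene's annotated strand, in the order of replicates 1, 2 and 3. Total counts were 3553547, 2945353 and 3369468, and the floor of 3 counts that a 0 leaves possible equals 0.844, 1.02 and 0.89 CPM (counts scaled to library size). Of all counts, 68.0%, 77.5% and 70.3% lay on genes that share exon bases with a gene on the opposite strand. Whether the strand option of the counting matched the strand that the library marks was not tested. On the mitochondrial genome, mt-Nd6, the only mRNA gene of its strand, had 20093, 25190 and 26553 counts, against 17357, 10435 and 17842 for the other 12 mRNA genes together. Were the option set against the library, a member's counts would be a small remainder of its mRNA. Counts on the exon bases that an opposite gene shares with it would then be read pairs of the member. So every level below, also of opposite genes, is a level on the annotated strand and not an abundance of the mRNA. The 6 general T cell genes examined were all detected. Of 5 Th1 genes 3 were detected. Il12rb2 had 90, 105 and 114 counts and Stat4 had 52, 23 and 33. Il12rb2 shares exon bases with Serbp1 on the opposite strand, and whether its read pairs came from Serbp1 RNA was not tested. Tbx21 had 15, 11 and 8 counts, while Ifng with 2, 2 and 1 and Cxcr3 with 2, 1 and 1 were below the floor. Ms4a1, Ncr1, Klrb1c, Lyz2 and Cd14, markers of B cells, NK cells and macrophages, had 0 counts in every library. The B cell marker Cd79a had 19, 18 and 22 counts and was detected at 7.34 ± 0.653 TPM. Of the CD8 markers, Cd8b1 had 30, 20 and 36 counts and Cd8a 1, 1 and 1, and the macrophage marker Adgre1 had 0, 1 and 1. The part of other cells in the members' values was not tested.

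Where exon bases are shared with a gene on the other strand, strand alone decides which gene a read pair counts for. Exon bases were shared with an opposite-strand gene by 15 members, in 20 pairs with 20 different genes. In 11 pairs, from 9 members, part of the shared bases is coding sequence of the member, and the stretches that are coding throughout and shorter than 300 bases are shown first, because a read pair from them goes to one gene or the other by strand alone. They are written 5′ to 3′ on the member's strand, from GENCODE M21 transcripts on mm10. In Srsf2 and Hnrnpab, capitals mark codons that match the RNP1 motif, the stretch of an RNA recognition motif that touches RNA. In Srsf4, capitals mark codons of neighbouring arginine and serine in the tail, and the other 4 have no capitals.
Srsf2, opposite Mfsd11, chr11:116852568-116852855, minus strand: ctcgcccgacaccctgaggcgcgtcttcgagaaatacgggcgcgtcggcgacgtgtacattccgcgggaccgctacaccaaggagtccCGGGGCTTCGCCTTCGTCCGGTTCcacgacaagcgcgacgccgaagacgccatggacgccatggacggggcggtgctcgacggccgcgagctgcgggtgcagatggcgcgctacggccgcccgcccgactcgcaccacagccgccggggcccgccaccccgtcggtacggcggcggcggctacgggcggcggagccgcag
Hnrnpab, opposite Phykpl, chr11:51604400-51604489, minus strand: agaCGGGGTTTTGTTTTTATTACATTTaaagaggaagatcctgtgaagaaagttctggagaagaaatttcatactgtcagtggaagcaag
Srsf4, opposite Gm12992, chr4:131900062-131900151, plus strand: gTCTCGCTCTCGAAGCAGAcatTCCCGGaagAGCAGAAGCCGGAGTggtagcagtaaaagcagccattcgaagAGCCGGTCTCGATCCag
Srsf1, opposite Gm11508, chr11:88047909-88048006, plus strand: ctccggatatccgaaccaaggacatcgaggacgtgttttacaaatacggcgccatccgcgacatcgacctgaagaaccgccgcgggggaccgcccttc
Hnrnph3, opposite Rufy2, chr10:63016428-63016542, minus strand: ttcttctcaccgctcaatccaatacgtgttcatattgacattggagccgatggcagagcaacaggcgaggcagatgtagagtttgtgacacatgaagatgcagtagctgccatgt
Pcbp2, opposite Gm26518, chr15:102483160-102483288, plus strand: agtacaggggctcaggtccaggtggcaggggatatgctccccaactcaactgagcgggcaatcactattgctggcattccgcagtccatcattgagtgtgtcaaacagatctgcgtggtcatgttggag
Ptbp1, opposite Plppr3, chr10:79860824-79860969, plus strand: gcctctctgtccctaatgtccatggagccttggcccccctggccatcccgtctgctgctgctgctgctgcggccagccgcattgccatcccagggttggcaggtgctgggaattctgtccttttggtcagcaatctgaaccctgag

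All 37 members reached 1 TPM (counts per exon length, scaled to the same sum in each library, computed here) in every library, against 8958 of 21764 protein-coding genes, or 41.2%. At 5 TPM in every library, 36 members remained, and Hnrnpr fell short. The median member stood at 80.2 ± 15.5 TPM (SD, n = 3 libraries), the median detected protein-coding gene at 9.77 ± 2.29 TPM. Members that share opposite exon bases had a median of 93.0 ± 25.7 TPM (15 genes) and the others 65.0 ± 14.1 TPM (22 genes). Among detected protein-coding genes the corresponding medians were 14.6 ± 2.09 and 8.26 ± 2.17 TPM. Members held 1.09%, 0.78% and 1.03% of all counts. Replicate 2 had the fewest counts and the lowest TPM for 37 of 37 members, while its total count was also the lowest. The same share over all genes is not given here. After the TMM scaling used below, replicate 2 was lowest in 70.3% of members and in 42.6% of all genes tested. Among tested genes without opposite exon overlap that share was 57.5%, and 22.5% among those with it. In bulk RNA, fewer cells of a type and less RNA per cell cannot be told apart.

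**Figure D1:**
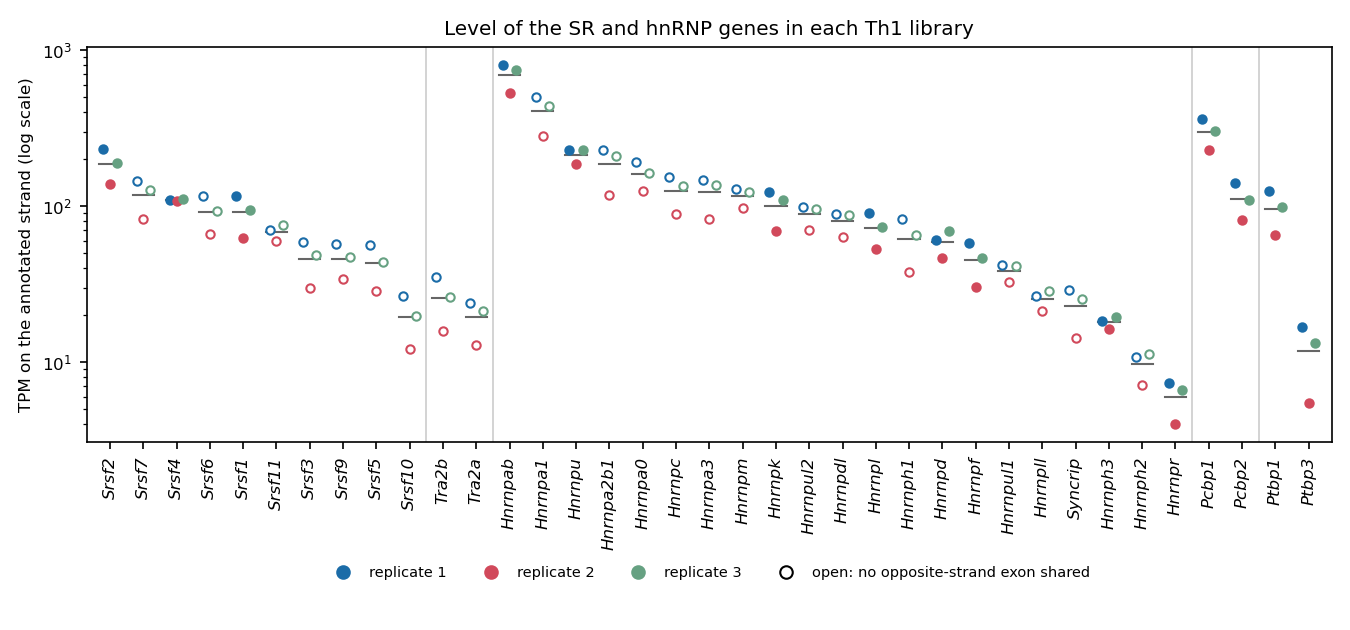
TPM of each member on a log scale, 1 point a library, with a short line at the mean of the 3 libraries, and members ordered by level within the SR, TRA2, hnRNP, PCBP and PTB families. Filled points are members that share exon bases with an opposite-strand gene, and replicate 2 is the lowest point of every member, from 533 TPM in Hnrnpab to 3.99 TPM in Hnrnpr.

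The 10 SR genes spanned 19.4 to 186 TPM in their means, with a family median of 78.2 ± 15.0 TPM. Srsf2 (ENSMUSG00000034120, chromosome 11, 116849901 to 116853094, minus strand), which encodes SC35, an SR protein of nuclear speckles, had 231, 139 and 189 TPM and was the highest SR gene. Srsf7, whose protein carries a zinc knuckle beside its RNA recognition motif, had 144, 82.8 and 127 TPM. Srsf4 (chromosome 4, 131873617 to 131901706, plus strand), an SR protein with a long arginine and serine tail, had 109, 108 and 110 TPM. Among SR genes this was the narrowest spread, an SD of 0.969 TPM. Srsf6 had 115, 66 and 93.3 TPM. Srsf1 (chromosome 11, 88047373 to 88053755, plus strand), the founding SR protein and an essential splicing factor, had 115, 62.3 and 94.9 TPM. These 2 genes were alike in level and in their order over the libraries. Srsf11, an SR-related protein that interacts with U2AF, had 69.9, 60.0 and 75.2 TPM.

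The lower SR genes were Srsf3, Srsf9, Srsf5 and Srsf10. Srsf3, the smallest SR protein and also an mRNA export adaptor, had 59.1, 30.0 and 48.4 TPM. Srsf9 had 56.7, 33.9 and 46.9 TPM from only 178, 98 and 145 counts, the fewest of the SR genes. Srsf5 had 56.2, 28.7 and 44.0 TPM. The 3 means lay between 43.0 and 45.8 TPM, closer together than their SDs of 11.4 to 14.7 TPM. Srsf10, a splicing repressor when it loses its phosphates in mitosis or heat shock, was the lowest SR gene at 26.4, 12.1 and 19.8 TPM. The TRA2 genes, related to the transformer-2 sex determination factor of Drosophila and binders of GA-rich enhancers, were in the same range. Tra2b had 35.0, 15.8 and 26.0 TPM and Tra2a 23.8, 12.8 and 21.2 TPM, and the values of the pair overlapped.

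Among the hnRNP genes Hnrnpab and Hnrnpa1 stood highest. Hnrnpab (ENSMUSG00000020358, chromosome 11, 51600100 to 51606847, minus strand), which encodes the CArG box-binding factor A, had 801, 533 and 748 TPM from 4236, 2593 and 3891 counts and ranked 77th of the protein-coding genes. Hnrnpa1, the silencer of exons that competes with Srsf1, had 497, 282 and 439 TPM, below Hnrnpab in each library. Hnrnpa2b1, known also as a reader of methylated adenosine, had 229, 118 and 209 TPM. Hnrnpa0 followed at 192, 125 and 162 TPM and Hnrnpa3 at 146, 83.0 and 137 TPM. The lowest library of Hnrnpa1 lay above the highest library of the other 3, Hnrnpa2b1 included. Hnrnpc, which binds uridine tracts and packages nascent RNA, had 153, 88.3 and 135 TPM.

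Hnrnpu, a nuclear matrix protein that scaffolds chromatin and RNA, had the most counts of any member, 5004, 3788 and 4911. Its long exons (11599 bases) put it at 227, 187 and 227 TPM, behind Hnrnpab, Hnrnpa1 and Pcbp1 in the mean. The related Hnrnpul1 and Hnrnpul2, which act in the response to DNA breaks, were lower at 38.4 ± 5.19 and 88.4 ± 15.6 TPM. Hnrnpd (AUF1), which binds AU-rich elements and speeds mRNA decay, had 60.2, 46.5 and 68.8 TPM, and its relative Hnrnpdl 89.3, 63.0 and 87.6 TPM. Hnrnpk, a KH-domain protein that binds cytidine-rich RNA, stood at 100 ± 27.9 TPM and Hnrnpm, a binder of GU-rich RNA, at 116 ± 17.0 TPM.

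Hnrnpl binds CA repeats and had 90.6, 53.1 and 73.5 TPM. Hnrnpll, its relative known from activated and memory mouse T cells as a repressor of variable exons of Ptprc, had 26.4, 21.3 and 28.3 TPM, below Hnrnpl in each library. Their target Ptprc, which encodes CD45, had 2434, 1160 and 2070 counts or 55.5 ± 17.4 TPM. Gene counts do not separate its exons, so the splice forms were not measured. The F/H group, which binds runs of guanosine, ran from Hnrnph1 at 61.6 ± 22.1 TPM through Hnrnpf at 44.8 ± 13.7 TPM and Hnrnph3 at 18.0 ± 1.64 TPM to Hnrnph2 at 9.72 ± 2.31 TPM. Syncrip (hnRNP Q) had 22.9 ± 7.73 TPM. Its paralog Hnrnpr was the lowest member in every library, at 7.3, 3.99 and 6.63 TPM over 22199 exon bases.

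Of the poly(C)-binding proteins, the intronless gene Pcbp1 had 361, 228 and 302 TPM and Pcbp2, its spliced relative, had 141, 80.8 and 109 TPM. Pcbp1 lay above Pcbp2 in each library, and the groups did not overlap. Ptbp1, which represses exons through pyrimidine tracts, had 125, 64.9 and 98.8 TPM. Ptbp3, the paralog first found in blood cells, had 16.8, 5.43 and 13.3 TPM from 239, 71 and 186 counts. The neuronal paralog Ptbp2, no member, had 27, 12 and 22 counts. Summed over genes, SR and TRA2 members reached 1041, 651 and 895 TPM and the hnRNP, PCBP and PTB members 3751, 2358 and 3382 TPM. The ratio of these sums was 0.277, 0.276 and 0.265. A factor common to the genes of a library cancels in this ratio, so its smaller spread is no sign of a steady balance.

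Opposite-strand neighbours were compared next, because their exons cover some of the same bases. Sharing opposite exon bases was a feature of 40.5% of members, 22.1% of protein-coding genes and 34.3% of detected protein-coding genes. The 20 opposite genes comprise 8 protein-coding genes, 5 antisense RNAs, 2 long intergenic RNAs, 2 genes annotated as to be experimentally tested, 1 processed transcript, 1 RNA from a bidirectional promoter and 1 pseudogene. In 7 pairs the genes meet head to head, in 6 tail to tail, in 6 the opposite gene lies inside the member and in 1 the member lies inside the opposite gene. Of 9062 shared bases, 4505 are 3′ UTR of the member, 1988 coding sequence and 1692 5′ UTR. The remaining 877 are exon bases outside the coding sequence and UTRs of its M21 transcripts.

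**Figure D2:**
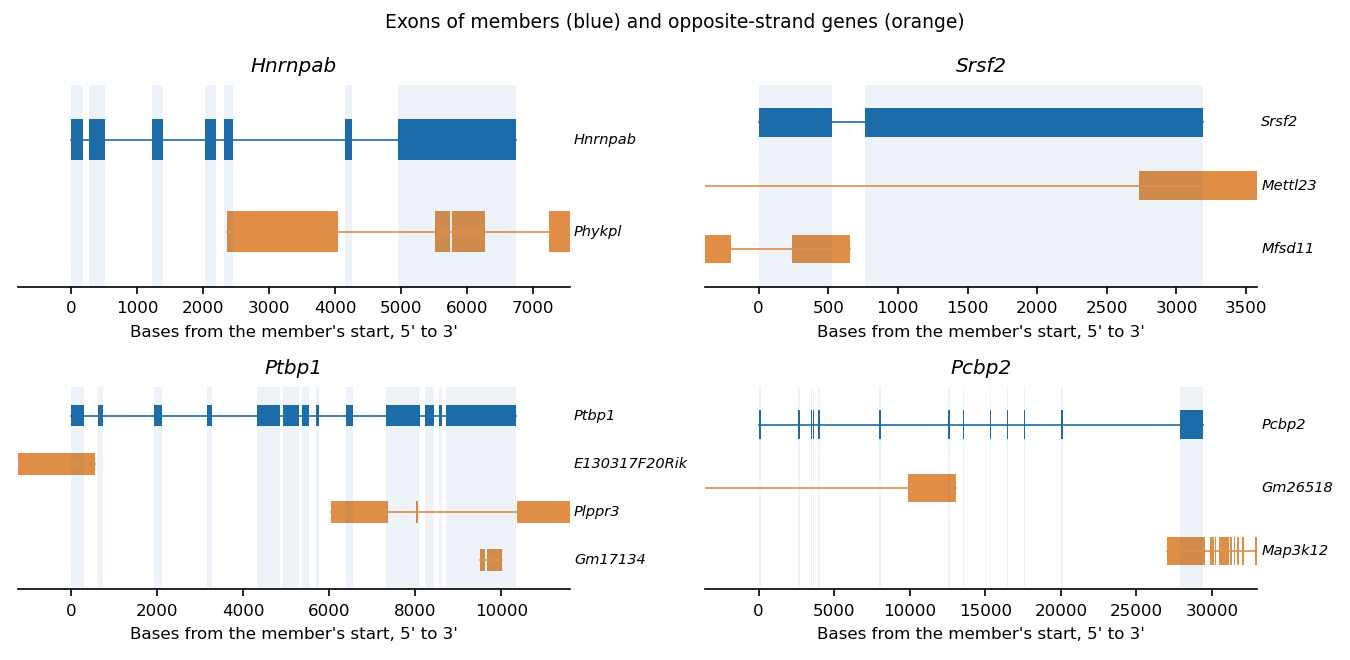
Exon maps of Hnrnpab, Srsf2, Ptbp1 and Pcbp2 (blue) and of the opposite-strand genes that share their exon bases (orange), in bases from the member's start in its 5′ to 3′ direction, clipped near the member's ends, with member exons shaded down the panel. The last exon of Hnrnpab and the exons of Phykpl share 719 bases of 3′ UTR, and Gm17134 lies wholly inside the last exon of Ptbp1.

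In 15 of 20 pairs the opposite gene had more counts than the member in every library, and in the other 5 it had fewer in every library. The corresponding shares over all opposite-strand pairs are not given here. Per kb of exon, the opposite gene was higher in every library in 17 of 20 pairs. Summed, the 20 opposite genes had 146288, 150101 and 145614 counts, against 38816, 22984 and 34754 on all 37 members. The opposite sum thus stood at 3.77, 6.53 and 4.19 times the members' sum. Whether read pairs counted on an opposite gene came from its own RNA or from the member's was not tested.

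Phykpl, which encodes a lyase of hydroxylysine breakdown, had 56428, 60038 and 57038 counts opposite Hnrnpab, 17.0 ± 5.33 times the count on Hnrnpab. They share 809 bases, 29.1% of the exon bases of Hnrnpab. Srsf2 lies between exons of 2 genes. Mettl23, a methyltransferase gene, had 14475, 14364 and 13676 counts and shares 460 bases of the 3′ UTR. Mfsd11, a gene of the major facilitator family, had 10141, 9516 and 9900 counts and shares the 288 coding bases printed above. Srsf2 itself had 1299, 718 and 1042 counts, below both in each library.

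Some noncoding neighbours had more counts per length than the member. Gm17134, annotated as an antisense RNA of 437 exon bases all inside the last exon of Ptbp1, had 7582, 8620 and 8040 counts. Per kb this was 18491 ± 1190 counts, against 178 ± 62.1 on Ptbp1. Ptbp1 also faces Plppr3, a gene related to lipid phosphatases and known from neurons, with 10904, 9984 and 9507 counts, and E130317F20Rik at its start, with 3714, 3838 and 4024 counts. All 3 were above Ptbp1 (1125, 538 and 875 counts) in every library. Gm11508, which overlaps the 98 coding bases of Srsf1, had 4776, 5589 and 5495 counts against 1251, 622 and 1013. Pcbp2 (766, 405 and 585 counts) faces Gm26518 with 10364, 8837 and 9522 counts and Map3k12, a kinase of axon injury signalling, with 10144, 9538 and 8715 counts. Of the exon bases of Pcbp2, 54.8% are shared with Map3k12.

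Srsf4 shares 1532 bases, 43.0% of its exons, with Gm12992. Gm12992 had 8223, 8120 and 7918 counts, 11.4 ± 0.643 times Srsf4, the ratio that varied least over libraries on the log2 scale (SD 0.08) among the pairs in which the opposite gene had more counts. The remaining pairs of that kind were Hnrnpd and Gm17092 (3.74 ± 1.27 times), Hnrnpf with 4933440N22Rik (6.45 ± 3.11) and Gm43863 (17.3 ± 7.94), Hnrnph3 and Rufy2 (8.62 ± 1.18) and Ptbp3 and 1700018M17Rik (4.31 ± 3.14).

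In 3 of the 5 pairs with fewer counts on the opposite gene, the shared stretch was under 100 bases. Among the pairs with more, only that of Srsf1 and Gm11508 was, at 98 bases. Whether the length shared bears on the counts was not tested. Rmi1, a partner of the Bloom helicase, shares 53 bases with the start of Hnrnpk and had 23, 19 and 30 counts. Gm44702 shares 32 bases with Hnrnpl and had 10, 15 and 14 counts. The 1600020E01Rik RNA shares 75 bases with the start of Pcbp1 and had 87, 101 and 86 counts. Gm27022 lies inside the 3′ UTR of Hnrnpr and had 15, 24 and 26 counts, few in number but 30.3 ± 8.2 per kb against 11.1 ± 3.63 on Hnrnpr. Cox20, an assembly factor of cytochrome oxidase, has 91.1% of its exon bases opposite Hnrnpu and had 1148, 1221 and 1147 counts. These bases lie in Hnrnpu exons outside the coding sequence and UTRs of its M21 transcripts. Per kb Cox20 was higher than Hnrnpu, at 1327 ± 48.1 against 394 ± 58.4.

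The log2 ratio of opposite gene to member (counts + 1) was highest in replicate 2 in 20 of 20 pairs. Its median over pairs was 2.34, 3.29 and 2.74. These pairs come from 15 members, 4 of them with more than 1 opposite gene, so they are not separate observations. Over tested genes with opposite exon overlap, the median log2 ratio of replicate 2 to replicate 1 after TMM scaling was 0.42, and -0.23 without. The share over all opposite-strand pairs is not given here. Replicate 2 also had the largest share of counts on genes with opposite exon overlap, 77.5%, and the largest ratio of mt-Nd6 to the other mitochondrial mRNA genes, 2.41 against 1.16 and 1.49. The part of either in the members' values was not tested.

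**Figure D3:**
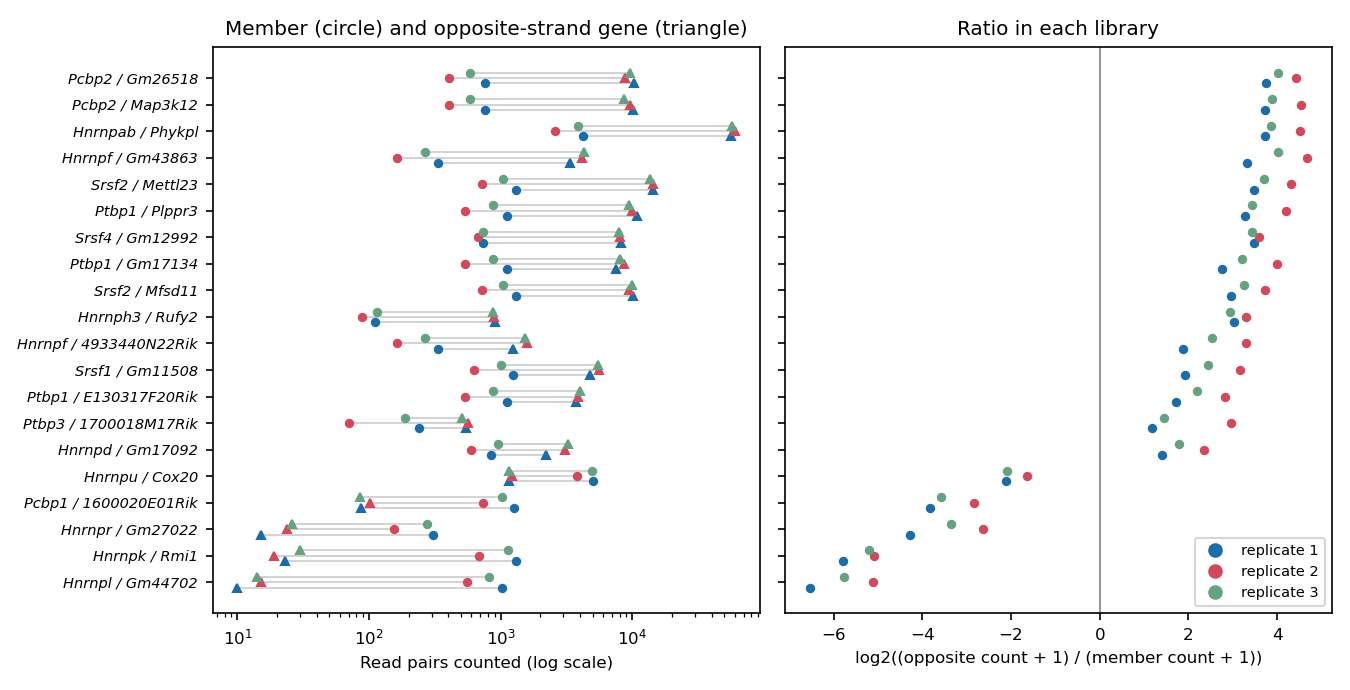
Left, counts on a log scale of each member (circle) and its opposite-strand gene (triangle) in each library, for the 20 pairs. Right, the log2 ratio of opposite count + 1 to member count + 1 in each library, above 0 in 15 pairs and below 0 in 5, with replicate 2 the rightmost point in all 20.

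For each gene, differences between the libraries were set against counting error by a chi-square test, at library sizes scaled by TMM, with Benjamini-Hochberg adjustment over 10216 genes. With 1 group, this compares libraries and not conditions. The test called 24 of 37 members at an adjusted p of 0.05, beside 35.6% of all genes tested. Among genes with a mean of 100 counts or more, 58.3% were called and 24 of the 36 members in that range. Calls covered 8 of 10 SR genes, 1 of 2 TRA2 genes, 12 of 21 hnRNP genes, 1 of 2 PCBP genes and 2 of 2 PTB genes. By position they covered 11 of the 15 members with opposite exon overlap and 13 of the 22 without. Over all genes tested the shares were 53.0% with overlap and 22.7% without.

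Called with replicate 2 lowest were 19 of 37 members, beside 11% of all genes tested. That 11% covers genes of every count level, of which 4690 of 10216 have a mean of 100 counts or more. Of the members 36 do, and a share matched for count level is not given here. Among called genes alone, replicate 2 was lowest in 19 of 24 members and in 1126 of 3641 genes (30.9%). That 30.9% mixes genes with and without opposite exon overlap, of which 53.0% and 22.7% were called. Over all genes tested, replicate 2 was lowest in 22.5% with overlap and 57.5% without. A share of called genes matched for overlap is not given here. Ptbp3 moved most, with scaled counts of 201, 94.0 and 176, a 2.14-fold range (adjusted p = 4.82e-07, chi-square test with Benjamini-Hochberg adjustment). That range rests on 71 counts in replicate 2, and Ptbp3 was not called without that library. Tra2b followed at 301, 197 and 248 (adjusted p = 0.000258), then Srsf10 at 296, 196 and 245 (adjusted p = 0.000446) and Hnrnph1 at 765, 514 and 670 (adjusted p = 3.12e-09, all by the same test). In all 4, replicate 2 was lowest and replicate 1 highest. Hnrnpa2b1 had the smallest adjusted p of all members, 9.29e-21 by this test, at 2408, 1796 and 2437, where replicates 1 and 3 lay close together.

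Srsf4, Srsf11 and Hnrnpu went the other way, with replicate 2 the highest of the called values. Srsf4 had scaled counts of 620, 891 and 692 (adjusted p = 2.53e-10), Srsf11 945, 1173 and 1123 (adjusted p = 6.12e-06) and Hnrnpu 4212, 5017 and 4646 (adjusted p = 2.63e-14, chi-square test with Benjamini-Hochberg adjustment). Hnrnpd and Hnrnpll were called with replicate 1 lowest and replicate 3 highest. Members that were not called include the highest, Hnrnpab, at 3566, 3434 and 3681 (adjusted p = 0.0622), and Hnrnpa0, at 822, 777 and 766 (adjusted p = 0.424, both chi-square). Both had a 1.07-fold range, the smallest beside Hnrnpul2. Of 19 opposite-strand genes tested, 18 were called, and replicate 2 was highest in those 18. Over all tested genes with opposite exon overlap, 53.0% were called, and their median log2 ratio of replicate 2 to replicate 1 was 0.42. The test calls smaller shifts at higher counts, and a share matched for count level is not given here.

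**Figure D4:**
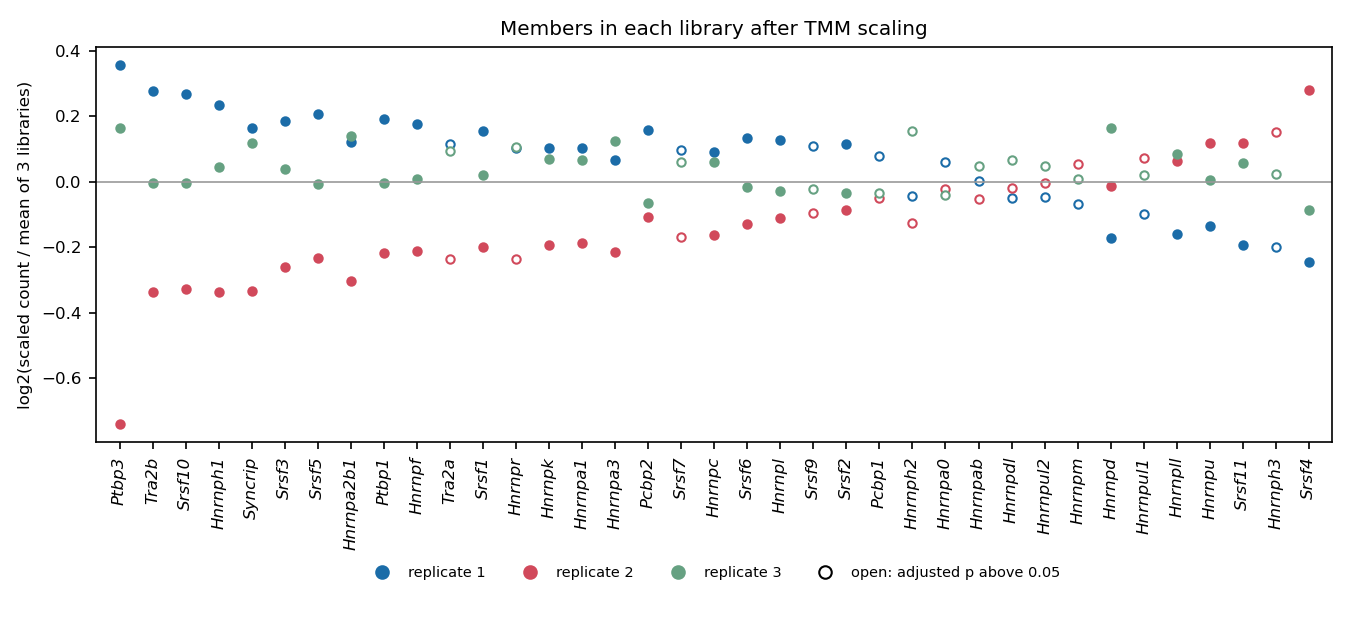
Scaled count of each member in each library as log2 of its ratio to the mean of the 3 libraries, after TMM scaling, with members ordered from replicate 1 highest to replicate 2 highest. Filled points mark members with an adjusted p of 0.05 or less in the chi-square test, and replicate 2 runs from the lowest point in Ptbp3 on the left to the highest in Srsf4 on the right.

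The direction rests on the scaling. With TMM the median log2 ratio of replicate 2 to replicate 1 was -0.26 over members and -0.04 over all genes. It was -0.23 over tested genes without opposite exon overlap and 0.42 over those with it. When TMM was computed from genes without overlap, the medians were -0.05 and 0.17, 16 members were called beside 33.3% of all genes, and of these 16 replicate 2 was lowest in 6 and highest in 9. On total counts alone the medians were -0.65 and -0.42, 34 members were called beside 51.7% of all genes, and replicate 2 was lowest in all 34. A library scaling moves members and all genes alike, so the difference between the medians, -0.22 with TMM, is nearly fixed over scalings and is no sign of stability. It was -0.32 without the count filter. Without replicate 2, 5 of 37 members were called beside 9.04% of all genes, namely Hnrnpd, Hnrnpll, Hnrnpu, Ptbp1 and Srsf11.

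Several features of the annotation bear on what a count of these genes covers. In GENCODE M21, 24 of 37 members (64.9%) have a transcript annotated for nonsense-mediated decay, against 20.9% of protein-coding genes. A retained-intron transcript is annotated for 28 members (75.7%), against 41.8%. Both backgrounds take all protein-coding genes, detected or not, so members were not compared with other detected genes. Counts and exon lengths are from GENCODE M13, and whether M13 holds these M21 transcripts was not checked. Where it does, gene counts pool them with the coding forms, and their exons lengthen the gene in the TPM. Srsf11 has 19 annotated transcripts, of which 11 are retained introns and 3 decay targets. Hnrnpk has 34, with 13 and 3. Pcbp1 and Hnrnpa0 have 1 transcript each.

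Copies elsewhere in the genome make some values uncertain, and how the authors treated read pairs with several matches is not given in the sources used. Of 50-base stretches of Hnrnpf transcripts, 33.0% recur in transcripts of other genes, chiefly the pseudogene Gm6430. The share was 28.2% for Hnrnpa1, 26.9% for Hnrnpa3, 15.9% for Hnrnph2 and 13.3% for Hnrnpk, again mostly in processed pseudogenes. It was 0 for Srsf1, Srsf2, Srsf4, Srsf6, Srsf9, Pcbp1, Ptbp1, Ptbp3 and others. On the same strand, Hnrnpm shares 1169 exon bases with March2, which had 18, 9 and 17 counts.

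The starts of these genes are dense in CpG. RefSeq windows on GRCm38.p6, from 250 bases before to 50 after the start, were matched for 34 members, all but Hnrnpll, Hnrnpul2 and Ptbp3. They held a median of 31.5 CpG, from 7 in Hnrnpf to 52 in Hnrnpa0, against 7 over 27025 promoters. A GC box (GGGCGG, either strand) was present in 82.4% of them and in 35.9% of all promoters, and CCAAT in 52.9% and 37.9%. The TATAAA box was present in 11.8% and 14.2%, the E-box CACGTG in 17.6% and 7.2%, and the ETS motif CCGGAAGT in 14.7% and 4.0%. These are matches of letters in the window, not bound sites. A member's window is the one nearest its deposited start, yet 2349 bases off in Hnrnpl, 1402 in Hnrnpm and 1226 in Hnrnpk. The background takes the first listed window of each symbol, detected or not, so members were not compared with other detected genes. The windows of Srsf2 and Pcbp1 are shown because exons of the opposite genes Mfsd11 and 1600020E01Rik, whose counts are given above, reach into them. Capitals mark bases in those exons.
Srsf2 start window, chr11:116853045-116853344, minus strand: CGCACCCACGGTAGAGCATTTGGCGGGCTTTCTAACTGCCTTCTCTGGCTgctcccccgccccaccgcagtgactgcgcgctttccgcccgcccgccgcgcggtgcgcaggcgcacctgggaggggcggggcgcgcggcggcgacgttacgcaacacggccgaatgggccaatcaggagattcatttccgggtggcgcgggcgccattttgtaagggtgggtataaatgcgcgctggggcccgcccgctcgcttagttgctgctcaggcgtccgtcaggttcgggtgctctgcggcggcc
Pcbp1 start window, chr6:86526140-86526439, minus strand: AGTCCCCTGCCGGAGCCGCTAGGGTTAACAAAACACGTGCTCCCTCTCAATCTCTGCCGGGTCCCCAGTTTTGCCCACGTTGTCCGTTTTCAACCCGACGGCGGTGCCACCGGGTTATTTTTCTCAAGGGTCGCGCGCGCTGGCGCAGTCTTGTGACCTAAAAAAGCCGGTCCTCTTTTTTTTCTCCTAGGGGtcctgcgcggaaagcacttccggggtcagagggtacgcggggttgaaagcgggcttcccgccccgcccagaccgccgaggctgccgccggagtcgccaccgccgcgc
The first 50 bases of the Srsf2 window are exon of Mfsd11, and 193 bases of the Pcbp1 window are exon of 1600020E01Rik. The Ptbp1 window lies within E130317F20Rik exons over all 300 bases, and that of Srsf11 shares 195 bases with Lrrc40.

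Other splicing genes, from 6 lists, gave a setting for these levels. Of 81 genes, 74 were detected and 23 share opposite exon bases. The core U1 and Sm proteins, which form the first complex on the 5′ splice site, were all detected (10 of 10) with a median of 76.3 ± 15.0 TPM, near the members' 80.2. Snrpd1 had 251 ± 84.0 TPM, Snrpb 109 ± 29.5 and Snrnp70 109 ± 13.2. The U2 and 3′ splice site genes (14 of 14 detected) had a median of 37.1 ± 10.7 TPM, led by Sf3a2 at 247 ± 1.9 (opposite Plekhj1), Sf3b2 at 137 ± 32.9 and U2af1 at 120 ± 28.0. The genes of the tri-snRNP and the catalytic core (10 of 10) had 27.6 ± 8.17 TPM, led by Prpf8 at 76.0 ± 18.8, Eftud2 at 33.2 ± 10.5 (opposite Gm26668) and Snrnp200 at 32.6 ± 12.4.

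Among SR protein kinases 8 of 9 were detected, with a median of 12.7 ± 3.28 TPM. Prpf4b had 56.3 ± 9.56 TPM, Clk3 24.5 ± 1.72 (opposite Edc3) and Srpk1 19.3 ± 5.12. SR-related proteins outside the members had a median of 40.7 ± 5.95 TPM, 11 of 12 detected, with Srrm2 (opposite Elob) at 82.4 ± 18.4, Acin1 (opposite 3 genes) at 82.3 ± 7.65 and Luc7l3 at 63.0 ± 6.86. Other splicing regulators had a median of 11.3 ± 3.32 TPM, 21 of 26 detected, led by Sfpq at 164 ± 34.7, Taf15 at 91.8 ± 19.6 and Nono at 90.4 ± 20.4. Within that list Esrp1, Nova1 and Rbfox1, regulators known from epithelium and neurons, had 0 counts in every library.

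**Figure D5:**
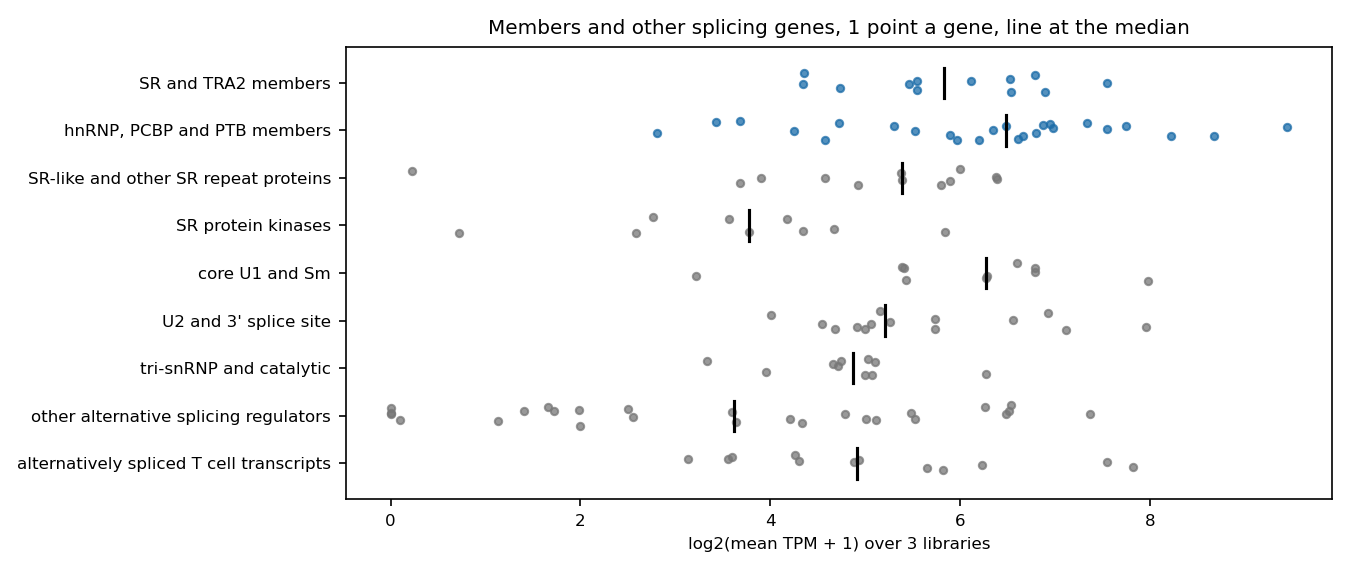
log2(mean TPM + 1) of each gene, 1 point a gene, for the members in blue and the 7 lists of other splicing genes and spliced T cell transcripts in grey, with a line at the median gene. Hnrnpab is the rightmost point of all, and Esrp1, Nova1 and Rbfox1 sit at 0.

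Genes whose alternative splicing in T cells is well known were all detected, 12 of 12, with a median of 29.0 ± 8.48 TPM. Pkm, whose paired exons are known from human cells to be chosen through Ptbp1, Hnrnpa1 and Hnrnpa2b1, had 225 ± 59.5 TPM. Cd247 had 185 ± 5.54 TPM (opposite Pou2f1) and Cd6, whose exon choice involves SRSF1 in human T cells, had 73.7 ± 9.83 TPM. In the test between libraries, calls covered 3 of 11 tested SR-related genes, 3 of 8 kinases, 4 of 10 core U1 and Sm genes, 7 of 14 U2 genes, 5 of 10 tri-snRNP genes, 10 of 22 other regulators and 4 of 12 spliced T cell transcripts. The background is the same 35.6%, or 58.3% among genes with a mean of 100 counts or more. The lists were not split by count level, so these shares are not matched for it. Among called genes, replicate 2 was lowest in 5 of 5 tri-snRNP genes, 5 of 7 U2 genes and 8 of 10 other regulators. It was lowest in 3 of 4 spliced T cell transcripts and 1 of 4 core U1 and Sm genes. For SR-related genes it was 1 of 3, and for kinases 1 of 3. The share over all called genes was 30.9%, which mixes genes with and without opposite exon overlap.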

How the data were processed

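RNA sequencing of 3 mouse Th1 libraries, labelled total RNA, was analysed from raw counts per gene. Read pairs with both ends aligned were counted by the authors with featureCounts 1.4.6-p4 and strand option 1 on GENCODE M13 exons, per the file headers. The build is mm10, per the labels. The kit and the aligner's version are not given in the sources used here. Exon lengths are those in the deposited files, where exons of all transcripts of a gene are merged. TPM, counts per kb and shared exon bases were computed here. Symbols, biotypes and transcripts are from GENCODE M21, matched by identifier (50376 of 50600), and promoter windows are from RefSeq.

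Variation beyond Poisson error was tested by chi-square (2 degrees of freedom) at TMM sizes, over genes passing filterByExpr of edgeR 4.0.16 (R 4.3.3), with Benjamini-Hochberg adjustment. It was tested on simulated data. Alternatives used DESeq2 1.42.0 size factors, total counts, TMM over genes without opposite exon overlap, no filter, a threshold of 0.01 and each library left out. The range of 100 counts or more was chosen after seeing the data. Floors cover counting error only. Named genes are all members, all opposite genes, and the 3 highest and all zero genes of each list. Genes named for cell type check the label. Members, lists and tests were chosen with earlier results of these data known. Figures were drawn with matplotlib 3.10.9.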

Additional observations from a re-analysis of the deposited data

How the results depend on the processing

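Leaving out 1 library gave 5 to 25 called members, against 24 with all 3, and 971 to 3795 called genes in all, against 3641. The fewest came without replicate 2 in both cases, and 14 members were called without replicate 1. The fit without a library has fewer samples. Of 37 members, 19 lost or gained no call but 13 lost and 5 gained one when TMM used genes without opposite exon overlap, and 11 gained and 1 lost one on total counts. Calls stayed within 20 to 28 members under DESeq2 size factors and without the count filter, and 19 passed the 0.01 threshold. The median member level, 6.32 as log2(TPM + 1), was 8.34 with TPM over genes without overlap, where the same sum is spread over fewer genes, and 7.72 in CPM, which is not per length. The ratio of summed SR to hnRNP levels, 0.273, was 0.33 among members without overlap and 0.264 on counts. It was 0.271 to 0.277 with 1 library left out, where a factor common to a library cancels as well. Members that share exon bases with a protein-coding opposite gene numbered 7 of the 15. All 37 members stayed detected at 10 counts and with each library left out. Direction turned with the scaling for some members. Hnrnpu and Srsf11, called with replicate 2 highest under TMM, were called with replicate 2 lowest on total counts, and Hnrnpab, lowest in replicate 2 under TMM and not called, was called with replicate 2 highest when TMM used genes without overlap. No paired analysis was possible because there is only 1 group. Depth limits Hnrnph2, Hnrnph3 and Srsf9, whose counts lay between 54 and 178, and Ptbp3, which had 71 counts in replicate 2.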
